A study of Mus musculus with 8 samples.

Results

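The erythropoietin receptor and its JAK2-STAT5 pathway were followed through 8 genes (Epor, Jak2, Stat5a, Stat5b, Cish, Socs3, Pim1 and Bcl2l1), chosen by name. Earlier results of these data were known at that choice. The genes were matched to every probe set that the array's annotation assigns to 1 of them alone. This gave 17 probe sets of 45101 on the array, for 8 of the 18194 genes with a probe set of their own. All arrays carried total RNA of cell suspensions from C57B6/J mice, each array a pool of 2 littermates, with 2 arrays in each of 4 groups. The groups were E14.5 fetal liver of Col18a1-/- embryos, fetal liver of Col18a1+/+ embryos at the same stage, flushed femur and tibia marrow of 3-month-old Col18a1-/- males, and marrow of Col18a1+/+ males of that age. Col18a1 encodes the chain of type XVIII collagen, a basement membrane proteoglycan, and the comparisons asked how its absence alters gene expression in fetal and adult blood-forming tissue. The suspensions were unsorted and so held every cell type that the tissue released.

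Erythropoietin is the hormone that keeps red cell precursors alive and dividing. It binds a pre-formed pair of receptor chains encoded by Epor, and the tyrosine kinase JAK2, bound to the inner part of the receptor, then phosphorylates the receptor and the transcription factors STAT5A and STAT5B. STAT5 enters the nucleus and switches on the feedback inhibitors Cish and Socs3, the serine/threonine kinase gene Pim1 and Bcl2l1, whose long product BCL-XL blocks apoptosis. At mid-gestation the fetal liver is the main site of red cell formation and depends on this pathway, while adult marrow also makes large numbers of neutrophils and B cells.

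Levels are log2 RMA intensities, in which a difference of 1 is a doubling. Genes were tested with limma on the brightest probe set of each gene, with p adjusted over the 13136 genes that reached 5 on at least 2 arrays, and single probe sets were tested over the whole table. Median intensities of the arrays lay between 40.8 and 42.6 on the linear scale, and arrays of 1 group correlated at r = 0.993 to 0.997 across probe sets, which are not independent replicates. All 8 genes passed the filter on low levels, on 8 of 8 arrays each, as did 15 of their 17 probe sets. The deleted gene Col18a1 was lower in the knockout arrays of both tissues, at 8.17 and 8.06 in knockout fetal liver against 9.06 and 9.18 in wild-type fetal liver, and at 5.63 and 5.99 in knockout marrow against 7.84 and 7.85 in wild-type marrow. Xist, which marks cells with an inactive X, was at 4.97 and 4.77 in the knockout and at 11.04 and 11.22 in the wild-type fetal pools, so genotype and embryo sex cannot be told apart in fetal liver. In the male marrow it was at 4.61 and 5.03 in knockout and at 4.86 and 4.78 in wild-type arrays. Between the wild-type tissues, tissue and sex therefore cannot be told apart either. The same holds where the wild-type and knockout tissue differences are compared. Eif2s3y, a gene of the Y chromosome, read 9.38 and 9.42 in knockout and 3.29 and 3.00 in wild-type fetal liver. In marrow it read 10.03 and 9.38 in knockout and 10.01 and 9.78 in wild-type arrays. Between the knockout tissues, Xist was thus low and Eif2s3y high on both sides. Summed intensities of 14 hepatocyte marker genes were 100178 to 103764 in knockout and 96043 to 100702 in wild-type fetal liver, against 348.9 to 396 in knockout and 351.1 to 389.2 in wild-type marrow, so the fetal suspensions kept liver cells. Summed intensities of 14 B-lineage genes were 543.8 to 555.2 in knockout and 555.2 to 586.2 in wild-type fetal liver, against 20995 to 21080 in knockout and 22828 to 23037 in wild-type marrow.

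**Figure D1:**
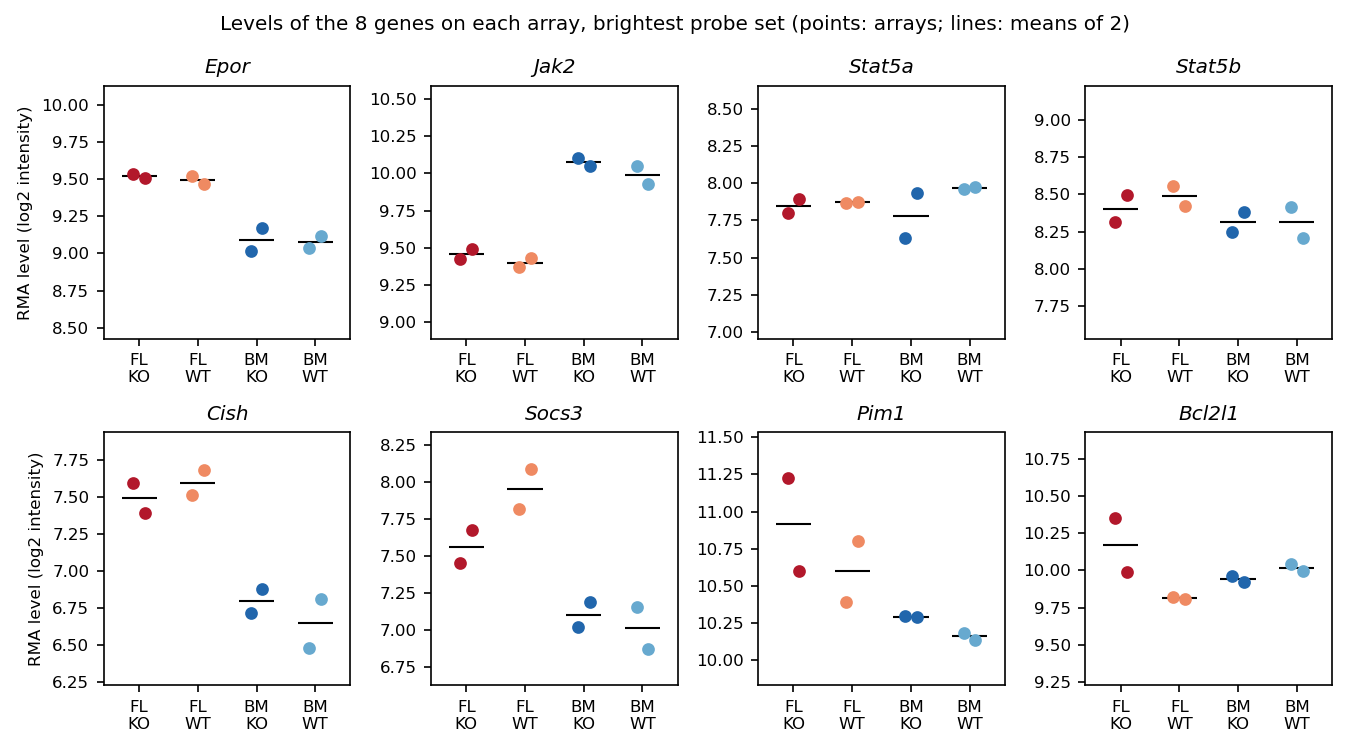
Levels of the 8 genes on the brightest probe set (y axis, log2 RMA intensity; every panel spans the same range), with 1 point per array and a line at the mean of each pair, for fetal liver (FL) and bone marrow (BM) of knockout (KO) and wild-type (WT) mice. Epor, Cish and Socs3 stand higher and Jak2 lower on all 4 fetal liver arrays than on any marrow array; the knockout and wild-type points of Epor overlap inside marrow and differ by 0.029 on average in fetal liver.

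The receptor gene Epor was higher in fetal liver than in marrow, in both genotypes and by nearly the same amount. Its single probe set (1423344_at) read 9.54 and 9.51 in knockout and 9.52 and 9.47 in wild-type fetal liver, against 9.02 and 9.17 in knockout and 9.04 and 9.12 in wild-type marrow. The 4 fetal liver arrays lay above the 4 marrow arrays with no overlap. The difference was 0.43 ± 0.093 (SE) in knockout tissue, a 1.35-fold higher level (adjusted p = 0.00321, limma), and 0.42 ± 0.093 in wild-type tissue, 1.33-fold (adjusted p = 0.00373, limma). Over all genes tested 63.8% were called between the knockout tissues and 65.9% between the wild-type tissues, so a tissue call by itself was the common outcome. In these unsorted suspensions fewer cells of a type and less RNA per cell cannot be told apart. The median difference over all genes tested was 0.11 in knockout and 0.14 in wild-type tissue.

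The red cell markers moved in both directions beside Epor. Of 16 tested erythroid markers, 5 rose and 4 fell in knockout fetal liver relative to knockout marrow, with a median of -0.038, and 3 rose and 7 fell between the wild-type tissues, with a median of -0.11. Their summed intensities were 74476 to 76778 in knockout and 66728 to 70652 in wild-type fetal liver, against 83861 to 84431 in knockout and 79250 to 82862 in wild-type marrow. These sums, which the brightest genes dominate, were lower on all 4 fetal liver arrays. The mean log2 level of the same 16 genes overlapped between the knockout tissues, at 11.73 and 11.69 in fetal liver and 11.72 and 11.71 in marrow, and was 11.49 and 11.602 in wild-type fetal liver against 11.61 and 11.67 in wild-type marrow. Whether the cell makeup has a part in the Epor difference was not tested.

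The 300-base window around the Epor start in RefSeq (GRCm38.p6, minus strand of chromosome 9, chr9:21963527-21963826) is shown in part because Epor is a classical target of erythroid factors. The stretch runs from position -160 to -40, counted from the start (chr9:21963616-21963736), with matches to the GATA element AGATAA (here on the opposite strand) and to the CACCC box CCACCC in capitals.
Epor: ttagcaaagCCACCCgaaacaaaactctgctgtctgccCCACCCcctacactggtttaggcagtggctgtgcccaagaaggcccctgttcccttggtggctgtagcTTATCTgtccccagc
GATA1 binds GATA elements and KLF1 binds CACCC boxes, both being factors of red cell precursors. Searched on both strands, AGATAA was present in 11.2% and CCACCC in 31.5% of the 32851 windows of this length in the table, so neither match is rare. Among the other member genes only Bcl2l1 had either match, AGATAA at position -41 and CCACCC (on the opposite strand) at -55, in separate windows. No STAT element (TTCNNNGAA) was found in the Epor window.

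Jak2, the kinase that carries the signal of the receptor, went the opposite way. Its brighter probe set (1421066_at) read 9.43 and 9.49 in knockout and 9.37 and 9.43 in wild-type fetal liver, against 10.11 and 10.05 in knockout and 10.05 and 9.93 in wild-type marrow. All 4 marrow arrays lay above all 4 fetal liver arrays. Jak2 fell by 0.62 ± 0.090 between the knockout tissues (adjusted p = 0.000321, limma) and by 0.59 ± 0.090 between the wild-type tissues (adjusted p = 0.000395, limma). The dimmer probe set (1421065_at) fell further, with differences of -1.011 ± 0.157 in knockout and -1.199 ± 0.157 in wild-type tissue (adjusted p = 0.000702 and 0.000213, limma over all probe sets). Many receptors of myeloid and lymphoid cells also signal through JAK kinases, and 13 of 13 tested neutrophil markers fell in fetal liver in each genotype, with medians of -3.59 in knockout and -3.37 in wild-type tissue. Their part in the Jak2 difference was not tested.

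The STAT5 genes, a pair of neighbours on chromosome 11 that encode closely related proteins, showed little tissue difference on their brighter probe sets. Stat5a (1421469_a_at) read 7.80 and 7.89 in knockout and 7.87 and 7.87 in wild-type fetal liver, against 7.63 and 7.93 in knockout and 7.96 and 7.98 in wild-type marrow. The groups overlapped except for the wild-type marrow pair at the top, and the knockout marrow arrays differed by 0.30 from each other. The difference was 0.065 (95% interval -0.19 to 0.32) in knockout and -0.10 (-0.35 to 0.16) in wild-type tissue, neither passing (adjusted p = 0.63 and 0.457, limma). Stat5b (1422103_a_at) read 8.31 and 8.498 in knockout and 8.55 and 8.42 in wild-type fetal liver, against 8.25 and 8.38 in knockout and 8.42 and 8.21 in wild-type marrow, with differences of 0.09 (-0.17 to 0.35) and 0.18 (-0.09 to 0.44) that did not pass (adjusted p = 0.52 and 0.209, limma). The knockout pairs overlapped, and the wild-type fetal pair lay just above the wild-type marrow pair.

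The STAT5 probe sets did not all say the same. The dimmer Stat5b set (1422102_a_at) read 6.35 and 6.15 in knockout and 6.39 and 6.35 in wild-type fetal liver, against 6.12 and 6.16 in knockout and 6.05 and 5.81 in wild-type marrow. It rose by 0.44 ± 0.124 between the wild-type tissues (adjusted p = 0.0174, limma over all probe sets) and differed by 0.10 in knockout tissue without passing (adjusted p = 0.57, limma). The mean of both Stat5b sets rose by 0.31 between the wild-type tissues (adjusted p = 0.0182, limma), so the Stat5b call depends on the probe set. The second Stat5a set (1450259_a_at) lay between 3.21 and 3.93 on all arrays, under the filter.

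Cish, the founding member of the SOCS inhibitors and a direct STAT5 target, was higher in fetal liver in both genotypes. Its probe set (1448724_at) read 7.59 and 7.39 in knockout and 7.51 and 7.68 in wild-type fetal liver, against 6.72 and 6.88 in knockout and 6.48 and 6.81 in wild-type marrow. All fetal liver arrays stood above all marrow arrays. Cish rose by 0.69 ± 0.137 in knockout tissue, 1.61-fold (adjusted p = 0.00203, limma), and by 0.95 ± 0.137 in wild-type tissue, 1.93-fold (adjusted p = 0.000287, limma).

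Socs3, which binds the receptor and JAK2 and shuts off signalling, was also higher in fetal liver. Its brightest probe set (1455899_x_at) read 7.45 and 7.67 in knockout and 7.82 and 8.09 in wild-type fetal liver, against 7.02 and 7.19 in knockout and 7.16 and 6.88 in wild-type marrow. The wild-type fetal liver pair was highest, the knockout fetal liver pair came next, and the marrow pairs overlapped. The rise was 0.46 ± 0.142 in knockout tissue (adjusted p = 0.0196, limma) and 0.94 ± 0.142 in wild-type tissue (adjusted p = 0.000382, limma). The knockout call was lost without knockout marrow replicate 1 (0.37, adjusted p = 0.119, limma) or without knockout fetal liver replicate 2 (0.35, adjusted p = 0.108, limma). The other 2 Socs3 probe sets rose as well, by 0.79 and 0.57 in knockout and by 1.09 and 0.64 in wild-type tissue, each with an adjusted p of 0.00591 or less (limma over all probe sets).

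Cish and Socs3 were the only 2 of the 8 genes with the STAT element TTCNNNGAA (N is any base) in a RefSeq start window, and they are printed for that reason. The motif reads the same on both strands and was present in 8.3% of all 32851 windows. It was in none of the other 11 of the 13 member windows, which run from 250 bases before to 50 after a start. The capitals mark the matches. The Cish stretch (GRCm38.p6, plus strand, chr9:107296649-107296678) runs from 10 bases before to 20 after the start, and in the Socs3 stretch (minus strand, chr11:117969502-117969531) the match begins at position -154.
Cish: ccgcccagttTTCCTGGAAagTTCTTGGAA
Socs3: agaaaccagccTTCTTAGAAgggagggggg
The 2 Cish matches are separated by 2 bases, and the element is the one STAT5 is known to bind. A match in a window is a description of its letters, and no binding was measured here. Pim1 and Bcl2l1, with 2 and 3 windows, had no match to this element.

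Pim1 and Bcl2l1 are the growth and survival targets among the 8 genes. Pim1 (1435458_at) read 11.23 and 10.60 in knockout and 10.39 and 10.80 in wild-type fetal liver, against 10.29 and 10.29 in knockout and 10.18 and 10.14 in wild-type marrow. All fetal liver arrays lay above all marrow arrays, but the fetal pairs differed by 0.62 in knockout and 0.41 in wild-type tissue, against 0.006 and 0.044 in marrow. Pim1 rose by 0.62 ± 0.200 between the knockout tissues (adjusted p = 0.023, limma), and the difference of 0.44 ± 0.200 between the wild-type tissues did not pass (adjusted p = 0.0826, limma). The knockout call was lost without knockout fetal liver replicate 1 (0.31, adjusted p = 0.142, limma) or without either knockout marrow array (0.63 and 0.62, adjusted p = 0.0825 and 0.0832, limma). The wild-type difference passed without wild-type fetal liver replicate 1 (0.64, adjusted p = 0.0393, limma) and without either knockout fetal liver array (adjusted p = 0.0221 for each, limma). It also passed on all arrays with an intensity trend (adjusted p = 0.0385), with array weights (0.0355) and with the wild-type groups alone (0.0407, limma). A dimmer Pim1 set (1423006_at) differed by 0.24 in knockout and 0.15 in wild-type tissue without passing (adjusted p = 0.187 and 0.411, limma over all probe sets).

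Bcl2l1 showed no call between the tissues. Its brightest probe set (1420888_at) read 10.35 and 9.99 in knockout and 9.82 and 9.81 in wild-type fetal liver, against 9.96 and 9.92 in knockout and 10.04 and 9.99 in wild-type marrow. The differences had opposite signs, 0.23 (95% interval -0.045 to 0.50) in knockout and -0.20 (-0.48 to 0.07) in wild-type tissue (adjusted p = 0.126 and 0.168, limma). Without knockout fetal liver replicate 2 the knockout difference was 0.41 and passed (adjusted p = 0.00734, limma), and without either knockout fetal liver array the wild-type difference of -0.20 passed (adjusted p = 0.0485, limma). The other 3 Bcl2l1 sets lay between 3.09 and 6.39, and none passed in either genotype.

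**Figure D2:**
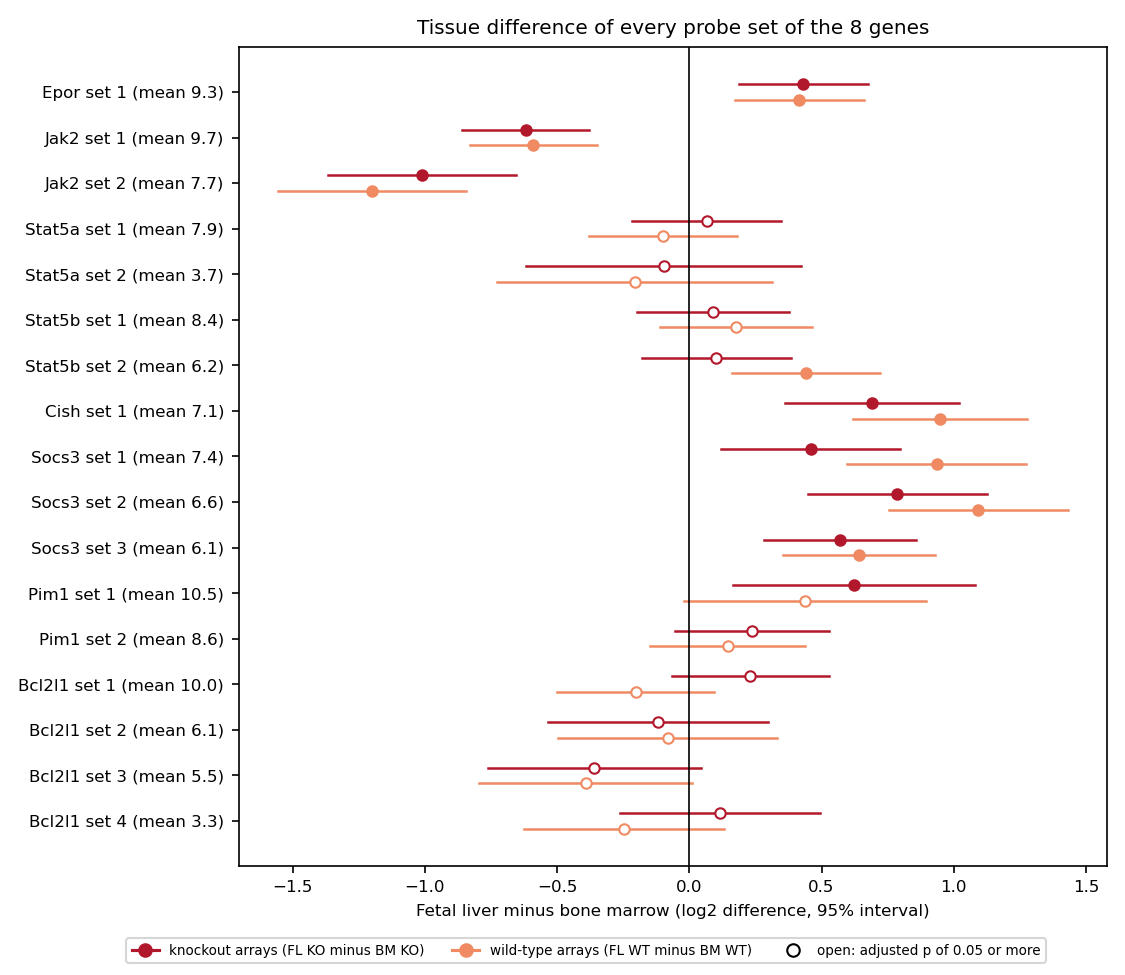
Fetal liver minus bone marrow for all 17 probe sets (x axis, log2 difference with 95% interval; the mean level over 8 arrays is given beside each set), knockout tissue above wild-type tissue in each row, filled where the adjusted p over all probe sets was under 0.05. In each genotype 8 of the 17 sets passed, 6 of them to the right of 0 and the 2 Jak2 sets to the left.

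Counted together, 5 of the 8 genes were called between the knockout tissues, 4 higher (Epor, Cish, Socs3 and Pim1) and 1 lower (Jak2), and 4 between the wild-type tissues, 3 higher and 1 lower. Of all genes tested, 36.6% were called higher and 27.1% lower in knockout tissue, and 39.2% higher and 26.8% lower in wild-type tissue. The share of called members thus lay near the background. The arrays of the 2 tissues did not overlap for 6 of the 8 genes in knockout and 8 of the 8 in wild-type mice, where 82.4% and 84.8% of all genes tested did not overlap. Of the 17 probe sets 8 were called in each genotype, where the background over the whole table was 39.7% in knockout and 42.4% in wild-type tissue. The calls of Epor, Jak2 and Cish were kept in both genotypes under all 17 alternatives of processing or array choice. The wild-type and knockout contrasts share no array, but 1 fit over all 8 arrays gave them a common estimate of spread. Their calls are therefore not independent.

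No member was called between the genotypes in fetal liver. Of the 8 genes 4 differed upwards and 4 downwards, between -0.39 and 0.36, and the adjusted p lay between 0.152 and 0.924 (limma). The background was 0.32% of all genes tested. At an unadjusted p under 0.05 there were 2 members, Socs3 and Bcl2l1, where 22% of all genes tested lay, and for these 2 genes the pairs did not overlap, as for 50.1% of all genes tested. None of the 17 probe sets passed, against 0.0554% of the whole table. Socs3 averaged 7.56 ± 0.16 (SD, n = 2) in knockout and 7.95 ± 0.19 (n = 2) in wild-type fetal liver, a difference of -0.39 (95% interval -0.71 to -0.064, adjusted p = 0.169, limma). The other 2 probe sets (1456212_x_at and 1416576_at) differed by -0.37 and -0.13 without passing, the latter with overlapping pairs. Bcl2l1 averaged 10.17 ± 0.25 in knockout and 9.81 ± 0.011 in wild-type fetal liver (SD, n = 2 each), a difference of 0.36 (0.08 to 0.63, adjusted p = 0.152, limma). The other 3 Bcl2l1 sets differed by 0.056, -0.12 and 0.15 with overlapping pairs, and the mean of all 4 sets differed by 0.11 (adjusted p = 0.648, limma).

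Single arrays weighed on these fetal liver values. Knockout replicate 1 was the highest of the 4 fetal liver arrays for Pim1 and Bcl2l1, at 11.23 and 10.35. Without knockout replicate 2 the Bcl2l1 difference was 0.54 and passed (adjusted p = 0.0275, limma), while 1010 genes in all were then called, against 42 with all arrays. Without knockout replicate 1 the difference was 0.18 for Bcl2l1 and 0.0062 for Pim1. For Epor the difference was 0.029 (95% interval -0.18 to 0.24) and for Jak2 it was 0.059 (-0.15 to 0.26). The dimmer Jak2 set (1421065_at) read 7.43 and 7.22 in knockout and 6.78 and 7.10 in wild-type fetal liver, pairs that did not overlap, and differed by 0.39 (0.031 to 0.74) without passing (adjusted p = 0.281, limma over all probe sets). The mean of both Jak2 sets differed by 0.22 (adjusted p = 0.25, limma). Stat5a differed by -0.024, Stat5b by -0.083 and Cish by -0.10. Summed erythroid markers were higher in the knockout than in the wild-type fetal liver pools (74476 to 76778 against 66728 to 70652), with 0 of 16 markers called and a median of 0.13. Their part in these differences was not tested.

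In bone marrow the genotypes also gave no called member, with an adjusted p of 0.86 to 0.998 (limma), 0 members at an unadjusted p under 0.05 and a background of 0.411% of all genes called (6.74% unadjusted). The differences lay between -0.19 (Stat5a) and 0.15 (Cish). Epor averaged 9.09 ± 0.11 in knockout and 9.08 ± 0.056 in wild-type marrow (SD, n = 2 each), a difference of 0.014 (95% interval -0.20 to 0.23). For 4 of the 8 genes the pairs did not overlap (Jak2, Stat5a, Pim1 and Bcl2l1), where 43.1% of all genes tested did not overlap. Markers of megakaryocytes, the platelet-forming cells, fell in these arrays, 11 of 13 being called with a median of -1.12, and their summed intensity was 8497 to 8882 in knockout against 16961 to 20417 in wild-type marrow. Beside them Jak2 differed by 0.088 (-0.12 to 0.29), Stat5a by -0.19 (-0.44 to 0.07) and Bcl2l1 by -0.076 (-0.35 to 0.20). Of 20 tested early response genes 2 rose in knockout marrow, Jun by 1.31 and Dusp1 by 0.96, and 0 fell, with a median of 0.14. Beside them Socs3 and Pim1, which inflammatory cytokines also induce, differed by 0.09 and 0.13 there.

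**Figure D3:**
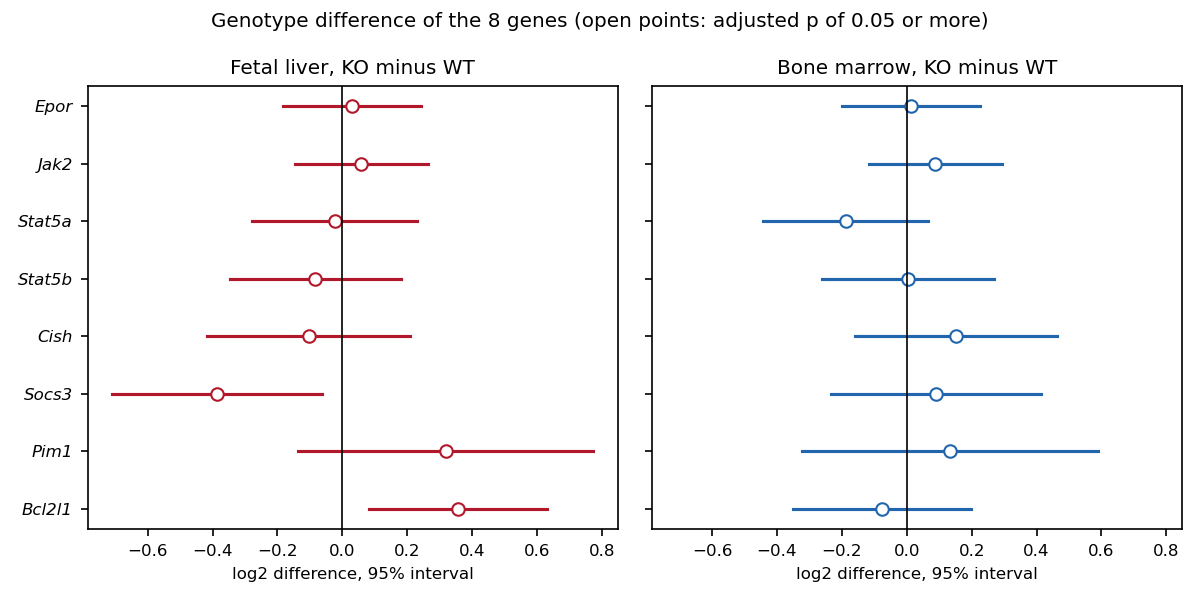
Knockout minus wild-type for the 8 genes on the brightest probe set (x axis, log2 difference with 95% interval) in fetal liver and in bone marrow, with open points where the adjusted p was 0.05 or more. All 16 points are open, and the intervals of Socs3 and Bcl2l1 in fetal liver are the only ones that leave out 0.

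The interaction is the genotype difference in fetal liver minus that in marrow. It was called for none of the 8 genes (adjusted p of 0.283 to 0.971, limma), with a background of 0.0914% of all genes. At an unadjusted p under 0.05 there were 2, Socs3 at -0.48 ± 0.200 and Bcl2l1 at 0.43 ± 0.170, where 15.7% of all genes tested lay. The larger rise of Socs3 between the wild-type than between the knockout tissues is therefore not shown to be a difference. For Epor the interaction was 0.016 (95% interval -0.28 to 0.32). Embryo sex cannot be told apart from genotype in the fetal liver part of the interaction.

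The wider pathway was read from gene lists of ligands, receptors, kinases, STATs, inhibitors, adaptors, targets and BCL2 relatives, with 88 tested genes besides the 8. None was called by genotype or interaction (limma). At an unadjusted p under 0.05 there were 22 in fetal liver (25%), 7 in marrow (7.95%) and 18 for the interaction (20.5%), near the background shares given above. The nearest in fetal liver was Pik3r1, a regulatory subunit of PI 3-kinase, at 9.72 and 9.69 in knockout and 9.19 and 9.21 in wild-type pools (difference 0.51 ± 0.085, adjusted p = 0.0633, limma), and in marrow it was Bmf, a pro-apoptotic BCL2 relative, at 7.39 and 7.17 in knockout and 7.88 and 7.96 in wild-type pools (-0.64 ± 0.109, adjusted p = 0.0562, limma). Both pairs were separate and both differences missed the threshold. Erythropoietin itself was not analysed here.

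Between the tissues 68.2% of the 88 genes were called in knockout (22 higher, 38 lower) and 71.6% in wild-type arrays (21 higher, 42 lower), near the 63.8% and 65.9% of all genes tested that were called. The direction was not that of the background. The median difference of the 88 genes was -0.15 in knockout and -0.24 in wild-type tissue, against 0.11 and 0.14 over all genes tested. The counts of the single lists below stand beside that background, with 36.6% of all genes higher and 27.1% lower in knockout tissue, and 39.2% higher and 26.8% lower in wild-type tissue. Of the 4 tested ligands, Kitl, the stem cell factor that acts with erythropoietin on red cell precursors, was higher in fetal liver by 1.79 ± 0.180 in knockout and 1.73 ± 0.180 in wild-type tissue. Osm, a cytokine gene and STAT5 target, differed by -2.43 and -2.02 in those tissues. Of 15 tested cytokine receptors 2 rose and 9 fell in each genotype, with medians of -0.997 in knockout and -1.31 in wild-type tissue. Csf3r, the G-CSF receptor of neutrophils, fell in both (-3.10 in knockout and -3.06 in wild-type tissue), and Il7r, the interleukin-7 receptor of lymphoid precursors, fell too (-5.37 and -5.15). Il7r read 5.46 and 4.81 in knockout and 5.70 and 5.63 in wild-type fetal liver, near the filter of 5, so the size of its fall is uncertain. Among the other JAK kinases Jak1 fell (-1.19 in knockout and -1.07 in wild-type tissue), Tyk2 fell (-0.26 and -0.25), and Jak3 rose only between the wild-type tissues by test (0.32 in knockout, adjusted p = 0.0712, and 0.53 in wild-type, adjusted p = 0.00881, limma), a gap that the interaction did not call (adjusted p = 0.647, limma). The other STATs had 3 of 4 lower in knockout and 4 of 4 in wild-type tissue, including Stat4. Stat4 read 4.39 and 4.34 in knockout and 4.30 and 5.08 in wild-type fetal liver, under the filter of 5 except for 5.08. In marrow it read 7.55 and 7.43 in knockout and 6.94 and 6.935 in wild-type arrays. Its fold is not given because of the low fetal liver levels.

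The inhibitors did not move as 1 group. Of the 5 other tested SOCS genes Socs2, a STAT5 target in many tissues, rose by 0.88 ± 0.116 in knockout and 1.14 ± 0.116 in wild-type fetal liver, and Socs5 rose by 1.32 and 1.40. Socs7 fell between the wild-type tissues by 0.41 (adjusted p = 0.00449, limma) and differed by 0.22 between the knockout tissues (adjusted p = 0.0751, limma), with an interaction of 0.63 that missed the threshold (adjusted p = 0.143, limma). Of 15 phosphatases, ubiquitin ligases and other negative regulators 2 rose and 8 fell in knockout tissue, and 3 rose and 9 fell in wild-type tissue. Sh2b3, the adaptor LNK that restrains JAK2, fell in both, with differences of -1.64 ± 0.093 in knockout and -1.89 ± 0.093 in wild-type tissue, and Ptprc, the leukocyte phosphatase CD45, fell too, with -3.601 and -3.58. The adaptor and kinase list had 2 of 16 higher and 7 lower in knockout, and 1 higher and 8 lower in wild-type tissue, with Gab1, a docking protein of the receptor, rising by 1.29 and 1.21.

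Of 17 tested STAT5 targets 10 rose and 4 fell in knockout tissue (median 0.42), and 8 rose and 4 fell in wild-type tissue (median 0.31). Over all genes tested 36.6% were called higher and 27.1% lower in knockout tissue (median 0.11), and 39.2% and 26.8% in wild-type tissue (median 0.14). Ccnd1, a G1 cyclin, rose by 2.75 ± 0.093 in knockout and 2.28 ± 0.093 in wild-type tissue, and Podxl, a sialomucin also made outside blood cells, rose as well. Podxl read 8.90 and 8.09 in knockout and 8.28 and 8.09 in wild-type fetal liver, against 3.84 and 4.599 in knockout and 3.98 and 4.37 in wild-type marrow, where it lay under the filter of 5, so its fold is not given. Bcl2, Mcl1 and Pim2 of this list read lower on all 4 fetal liver arrays than on any marrow array. In wild-type fetal liver Bcl2 read 6.59 and 6.28, Mcl1 11.74 and 11.70, and Pim2 6.39 and 6.68. In wild-type marrow Bcl2 read 7.87 and 7.73, Mcl1 12.35 and 12.21, and Pim2 7.52 and 7.40. Of 14 BCL2 family genes 4 rose and 6 fell in each genotype, Bnip3, a mitophagy receptor, rising by 2.55 and 2.48 and Bid, a pro-apoptotic member, falling (-0.90 and -0.81). These lists include genes of hepatocytes, neutrophils and B cells, whose markers differed between the tissues as given above, and their part was not tested.

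**Figure D4:**
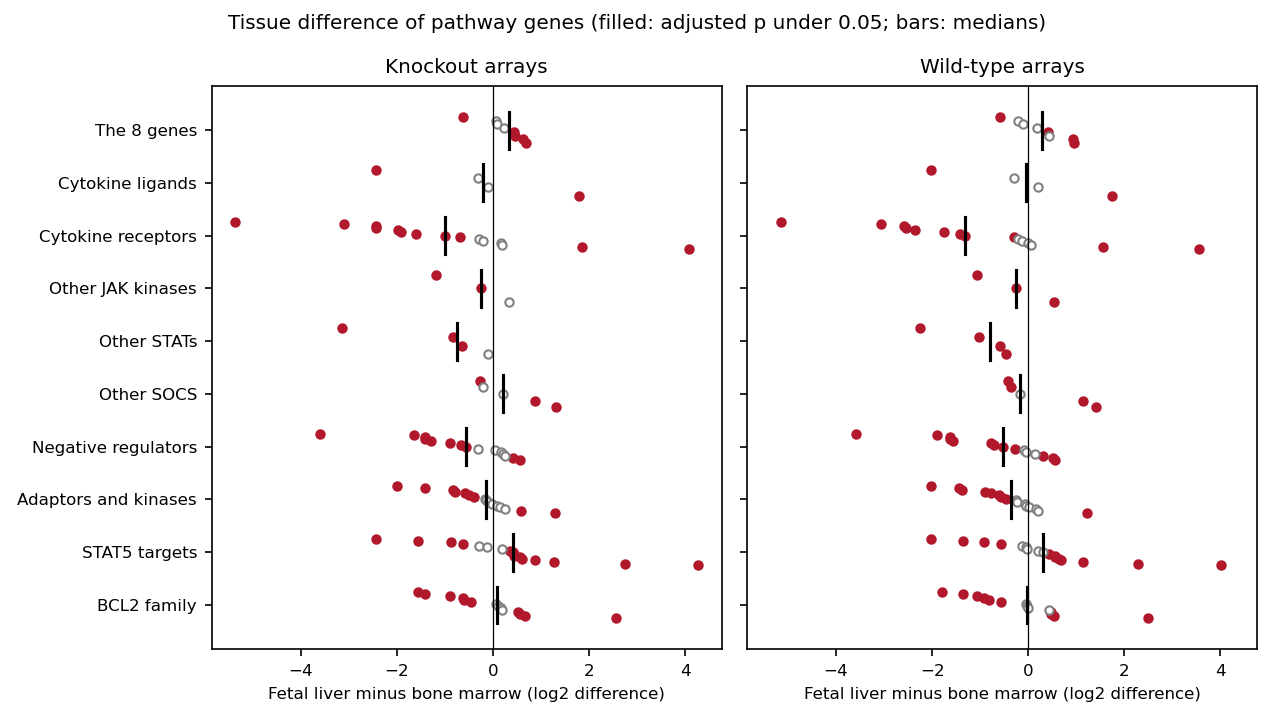
Fetal liver minus bone marrow (x axis, log2 difference) for the 8 genes and each pathway list, 1 point per tested gene, knockout tissue on the left and wild-type tissue on the right, filled where the adjusted p was under 0.05, with a bar at each median. The cytokine receptors spread from -5.37 (Il7r) to 4.08 (Ghr) in knockout tissue, while the 8 genes stay between -0.62 and 0.69. Both ends rest on levels near the filter of 5. Il7r read 5.46 and 4.81 in knockout fetal liver, and Ghr 5.18 and 4.56 in knockout marrow.

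Epor and Cish moved in the same direction across the arrays, with a Pearson r of 0.960 (8 arrays in 2 tissue clusters). Jak2 ran opposite to Epor, at -0.977. Stat5a and Bcl2l1 had r of 0.024 and 0.079 with Epor. The genes whose log2 levels were most like those of Epor over the 8 arrays were Brf2, Tm9sf4 and Plbd2, at Pearson r of 0.995 to 0.996, and those most like Cish were Tfap4, Acsf3 and Tmc4, at 0.991 to 0.995. For Epor, Jak2 and Cish these values chiefly describe the step between the tissues, and all arrays share their normalization. Stat5a was most like Nfrkb, Dck and Pou3f2, at 0.922 to 0.955, each lowest on knockout marrow replicate 1. Pim1 was most like Eif2ak1, the heme-regulated eIF2 kinase of red cell precursors, at 0.995, with 9.62 and 9.32 in knockout and 9.21 and 9.40 in wild-type fetal liver, so the same fetal liver arrays were high for both. Bcl2l1 was most like H2-T3, Nras and Mapkbp1, at 0.963 to 0.9752, each highest on knockout fetal liver replicate 1.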

How the data were processed

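The authors deposited 1 intensity per probe set and array, made with RMA (background correction, quantile normalization and probe summary), per the submitters' processing notes. The version, detection calls and genome build are not given in the sources used here. Intensities are linear and were turned into log2 here. RMA makes array distributions alike and compresses dim differences.

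Of 45101 probe sets, 34958 name 1 gene. The probe set with the highest mean was kept for each of 18194 genes, and the 13136 at 5 or more on at least 2 arrays were tested. All 8 arrays entered 1 linear model with a mean for each group, in R 4.3.3 with limma 3.58.1 (4 residual and 4.48 prior degrees of freedom), with Benjamini-Hochberg adjustment and a threshold of 0.05, two-sided. Single probe sets were tested over all 45101 without a filter. The fit was tested on simulated data, in 10 rounds with 200 of 13136 genes changed in each. In the marrow genotype comparison it recovered 47% of 1.5-fold, 93.3% of 2-fold and 99.4% of 4-fold differences. Between the wild-type tissues the shares were 47.3%, 91.5% and 99.1%. False calls made up 4.97% and 4.63% of the calls in these simulations. In the measured data 65.9% of genes were called between the wild-type tissues, far more than the simulation changed. The simulated shares therefore cannot be carried over to the tissue comparisons. The fetal liver genotype comparison and the interaction were not tested in this way. Replicates are pools of littermates, so p-values measure the spread between pools only. Groups came from the sample titles.

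The members and lists were chosen with earlier results of these data known. Named genes were the 8, up to 3 per list with the largest moderated t between the wild-type tissues, any called by genotype, and the 3 most alike per member. Further list genes, such as Gab2, Bcl2, Mcl1 and Pim2, were named outside that rule to give both directions. Start windows are from RefSeq (GRCm38.p6). The 8 genes had 13 windows.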

Additional observations from a re-analysis of the deposited data

Results flagged for a closer look

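On its brightest probe set, Bcl2l1 differed in opposite directions between the genotypes of the 2 tissues, with every knockout array above every wild-type array in fetal liver (10.35 and 9.99 against 9.82 and 9.81) and below in marrow (9.96 and 9.92 against 10.04 and 9.99). The interaction was 0.43 (unadjusted p = 0.0331, adjusted p = 0.283, limma) and missed the threshold. It was 0.20 to 0.61 over the alternatives, lowest with the mean of all 4 probe sets. In fetal liver the other 3 sets differed by 0.056, -0.12 and 0.15, with overlapping pairs. In marrow they differed by 0.093 and -0.15 with overlapping pairs and, in the set under the filter, by -0.22 without overlap. Over all genes tested the pairs did not overlap for 50.1% in fetal liver and 43.1% in marrow. Genotype and embryo sex cannot be told apart in fetal liver.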

How the results depend on the processing

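Of 672 comparisons of a member's difference with its value under an alternative, 656 stayed on the same side of the threshold, 5 lost a call, 11 gained one and 0 reversed, and all 75 comparisons of probe sets with the filter applied stayed. No member was called by genotype or interaction in any alternative, except Bcl2l1 in fetal liver without knockout replicate 2, so leaving out 1 array gave 0 to 1 called members there. Called members numbered 3 to 5 between the knockout tissues and 4 to 6 between the wild-type tissues with 1 array left out. The counts over all genes moved more. In marrow the 54 genotype calls became 97 with an intensity trend and robust prior, 109 with array weights, 3 with the groups compared alone, and 2 to 76 with 1 array left out (2 without either knockout marrow array). In fetal liver the 42 calls became 14 without a filter, 409 with the trend, 9 with weights, 4 with the groups alone and 5 to 1010 with 1 array left out (5 without knockout fetal liver replicate 1 and 1010 without replicate 2). The 12 interaction calls became 5 without a filter, 19 after repeated quantile normalization, 68 with the trend, 6 with weights and 5 to 80 with 1 array left out. Of them 9 were positive, against 6 of 10 with arrays centred on their medians. The cause was not tested. With the replicate number as a block the fetal liver count was 10 and the interaction count 5, and no member's call changed. Over all genes tested, same-numbered arrays did not deviate together (r of -0.12 to -0.00078). With 2 arrays per group this cannot exclude shared handling that touched only part of the genes. The main fit used no pairing. The 2 arrays per group limit every interval.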
